A study of Mus musculus with 36 samples.

Results

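Apolipoproteins are the proteins that coat lipoprotein particles, and 8 of them were followed here together with Mttp, the microsomal triglyceride transfer protein, and Lpl, lipoprotein lipase, in the liver and in 2 fat depots, white (WAT) and brown (BAT). All probe sets of the array whose platform symbol was exactly one of the 10 gene names were taken, which gave 17 of the 45037 probe sets tested and 10 of the 18193 gene symbols. Apoa1 had 4 probe sets, Apoa4, Apob, Mttp and Lpl had 2 each, and the other 5 genes had 1 each. Where a gene had several, the one with the highest mean score over all arrays stood for the gene.

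The 36 Affymetrix Mouse Genome arrays came from 12 male ddY mice, an outbred stock, with 1 array of each tissue per mouse. The CAAM mice (n = 5, numbers 2, 4, 5, 6 and 7) received 1.8% of amino acids mixed to resemble a casein hydrolysate (CAAM), by feeding tube, and the DW mice (n = 7, numbers 1 to 7) received water. All were 5 weeks old when obtained, were dosed 5 times at 37.5 µl per g body weight, once a day, lost access to food before the final dose, and had their tissues collected 4 h after it. Before the arrays were compared, 2 further mice of the CAAM group had been left out for their liver morphology, and whether this choice bears on the liver values was not tested. Equal numbers in the CAAM and DW groups name different mice.

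In the liver, ApoB is the scaffold of very low density lipoprotein, and Mttp loads it with lipid while it is made. Apoa1 and Apoa2 are the main proteins of high density lipoprotein (HDL), and Apoa4 is carried on HDL and on chylomicrons. Once particles circulate, Lpl on the capillary wall releases fatty acids from their triglyceride, Apoc3 slows this step, Apoa5 favours it, and Apoe guides remnants to hepatic receptors. Liver and intestine secrete most of these proteins, whereas Lpl is made mainly by fat and muscle, and Apoe and Apoc1 are also made by macrophages.

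Apoa1, Apoc3, Apoa4 and Apoa5 lie next to each other in the mouse genome, and Apoa4 was the 1 of them called in liver. Promoter sequences were given by RefSeq (build GRCm38.p6) for 7 of the 10 genes, and the 250 bases before the annotated start are shown for Apoa1, Apoa4 and Apoa5, the neighbours with an entry, each on the plus strand at chr9:46228380-46228629, chr9:46240594-46240843 and chr9:46268358-46268607. Capitals mark matches to CAAAGTTCA, CAAAGTCCA or CAAAGGTCA, words bound by nuclear receptors such as HNF4A, a hepatic activator of many apolipoprotein genes, and to TATAAA, the TATA box, searched on both strands.
Apoa1: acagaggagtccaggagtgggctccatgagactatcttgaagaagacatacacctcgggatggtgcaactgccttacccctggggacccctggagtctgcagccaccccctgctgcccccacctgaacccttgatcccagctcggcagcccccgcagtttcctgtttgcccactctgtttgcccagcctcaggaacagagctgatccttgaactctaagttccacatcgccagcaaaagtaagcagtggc
Apoa4: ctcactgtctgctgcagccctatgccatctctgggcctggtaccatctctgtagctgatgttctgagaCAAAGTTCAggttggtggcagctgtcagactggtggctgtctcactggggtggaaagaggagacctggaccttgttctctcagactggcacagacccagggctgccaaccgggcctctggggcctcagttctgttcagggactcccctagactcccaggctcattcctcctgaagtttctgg
Apoa5: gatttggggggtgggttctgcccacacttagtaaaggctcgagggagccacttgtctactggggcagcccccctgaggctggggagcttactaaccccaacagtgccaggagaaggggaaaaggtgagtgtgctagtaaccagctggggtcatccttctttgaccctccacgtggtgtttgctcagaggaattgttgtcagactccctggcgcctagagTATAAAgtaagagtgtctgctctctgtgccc
The Apoa4 window held CAAAGTTCA beginning at position -182 from the start, a word found in 0.335% of 32851 promoter windows of the same length. This share is for 1 word in 1 window, while the 4 words were searched in 11 promoter entries of the 7 genes. The Apoa5 window held TATAAA at position -31, found in 12.4% of windows, and the Apoa1 window held none of the 4 words. CAAAGTCCA and CAAAGGTCA, present in 0.384% and 0.426% of windows, were in no window of the 7 genes, and TATAAA also occurred in those of Apoa2, Apob and Apoe. A match is a description of the letters and not evidence of binding.

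The deposited scores are distribution free weighted (DFW) scores. Their level is on a log2-like scale, but each probe set has its own weight by which its deviations between arrays are scaled, so that differences between mice are small and are not log2 fold changes. Differences are therefore given in score units with a standard error (SE), or per pooled standard deviation (SD) of the mice of a group, called the standardised difference. The median SD within groups was 1.07e-05 in liver, 1.43e-05 in WAT and 7.31e-06 in BAT, while the median probe set differed by 0.272 score units between liver and WAT, 0.23 between liver and BAT and 0.218 between BAT and WAT. Array medians did not overlap between the tissues (6.807 to 6.80735 in liver, 6.91311 to 6.91907 in WAT and 6.78036 to 6.78179 in BAT), a pattern of tissues quantified apart, which the sources used here do not state. Levels in different tissues were therefore set side by side without a test.

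Tissue identity was clear in the defining markers. Albumin scored 15 in DW livers, against 6.98 in DW WAT and 6.54 in DW BAT. Adiponectin (Adipoq) scored 6.07 in DW livers, against 14.51 and 14 in DW WAT and DW BAT. The leptin gene Lep was at 7.34 in BAT and at 11.33 in WAT, and the uncoupling protein gene Ucp1 was at 14.17 in BAT and at 6.44 in WAT. Cyp2e1, listed among the hepatocyte markers, scored 14.48 in liver but also 14 in WAT. Libraries of both fats stood apart in markers of neighbouring tissue. In BAT, CAAM mouse 2 and DW mice 1, 3 and 7 had Acta1 scores of 12.39 to 16.44, and the 8 others had 6.62 to 8.90. The 6 skeletal muscle markers summed to 39.11 to 68.28 in CAAM BAT and 41.13 to 71.68 in DW BAT. In WAT, CAAM mice 6 and 7 and DW mice 1 and 2 had Adam7 scores of 8.70 to 16.24, and the 8 others had 6.44 to 8.08. In DW mice 1 and 2 Lcn5 (8.67 and 7.14) was also above the 8 others (6.28 to 6.38). Their Serpina1f (6.02 and 6.03) and Spint4 (6.41 and 6.38) lay within the range of the 8 others (5.99 to 6.13 and 6.37 to 6.70). The 4 measured markers of the male tract summed to 25.18 to 49.27 in CAAM WAT and 26.27 to 37.34 in DW WAT. In bulk tissue, fewer cells of a type and less RNA per cell cannot be told apart.

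The 8 apolipoprotein genes and Mttp were liver genes by level, and Lpl was a fat gene. In DW mice 9 of the 10 genes scored at least 1 unit higher in liver than in WAT and 1, Lpl, at least 1 unit lower. Over all probe sets, 3.96% were at least 1 unit higher and 8.35% at least 1 unit lower in this comparison. Against BAT, the same counts were 9 and 1 of 10, where 5.02% and 4.6% of all probe sets were past these limits. Of these, 7 genes were at least 3 units higher in liver than in WAT and 8 than in BAT, and Lpl at least 3 units lower (1.1% and 1.25% of all probe sets were this much higher, and 0.733% and 0.466% lower). All 10 genes were above the tissue median in liver, 5 were in WAT and 6 in BAT.

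**Figure D1:**
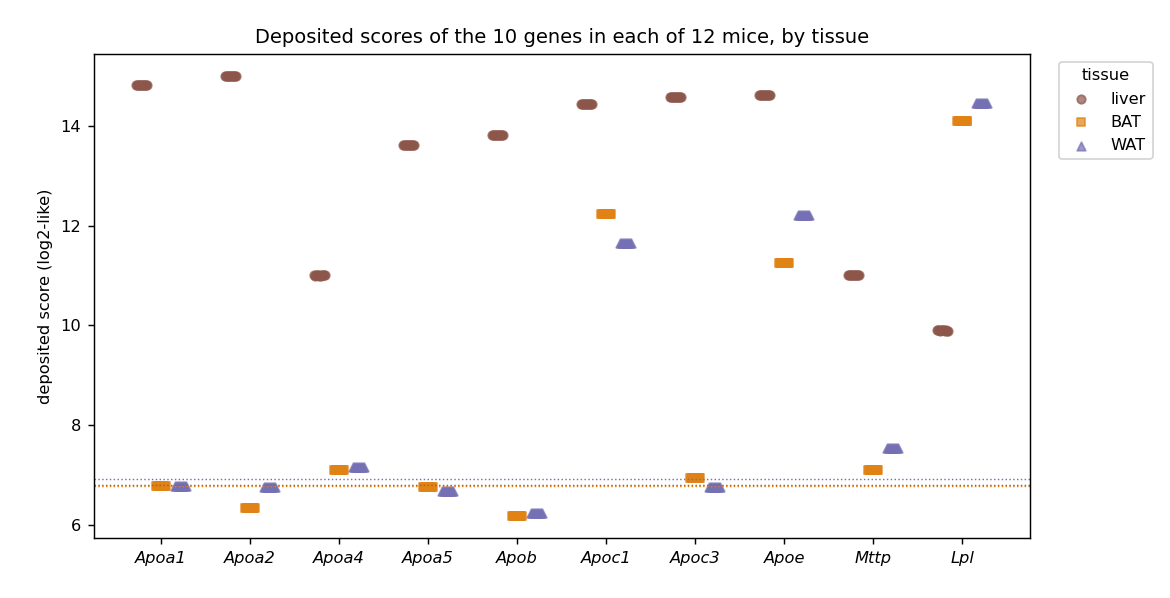
Deposited scores (vertical axis, log2-like) of the 10 genes (horizontal axis) in liver, BAT and WAT, 1 point per mouse for all 12 mice, with dotted lines at the tissue medians over all probe sets. Points of a tissue fall on each other because the scores of a gene differ little between mice, and only Lpl lies lower in liver than in both fats.

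Among the HDL proteins, Apoa2 scored 15.01 in DW livers, against 6.76 in DW WAT and 6.34 in DW BAT, and Apoa1 had 14.83, 6.79 and 6.77 in the same order of tissues. Both lay below the tissue median in both fats, so that the size of their gaps also depends on the floor of each probe set, and gaps are not ranked between genes. The 4 probe sets of Apoa1 gave liver minus WAT differences of 8.04 to 8.15.

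Apob, the scaffold, scored 13.81 in DW livers and 6.24 and 6.17 in DW WAT and DW BAT. Mttp, its lipid loader, scored 11.02, 7.54 and 7.09, so that it stayed above the tissue median in both fats. Apoc3 and Apoa5, which act on Lpl in opposite ways, scored 14.59 and 13.61 in DW livers, 6.76 and 6.68 in DW WAT and 6.94 and 6.76 in DW BAT.

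Apoa4 scored 11.00 in DW livers, against 7.16 in DW WAT and 7.10 in DW BAT. Scores of different probe sets are not compared as amounts of RNA. Apoc1 and Apoe were well above the tissue median in both fats. Apoc1 scored 14.45 in DW livers, 11.64 in DW WAT and 12.23 in DW BAT, and Apoe scored 14.61, 12.21 and 11.25.

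Lpl ran the other way, with 9.90 in DW livers, 14.45 in DW WAT and 14.09 in DW BAT. Its liver minus WAT difference was -4.55 and its liver minus BAT difference -4.19, with liver lower in 7 of 7 mice each, and its other probe set had -5.79 and -4.89. Between the fats no gene of the 10 differed by 1 unit, where 1.77% of all probe sets were at least 1 unit higher and 4.91% at least 1 unit lower in BAT. The differences BAT minus WAT lay between -0.97 for Apoe and 0.58 for Apoc1. The order of levels was the same in the CAAM mice, whose means lay within 0.01 units of those of DW mice for all genes and tissues.

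CAAM was compared with DW within each tissue by rank products, the study's test, with a call where the estimated share of false positives was under 0.05 in a direction. limma gave the differences, their SE and p-values adjusted by Benjamini-Hochberg over all probe sets. In liver, 2 of the 10 genes, Apoa4 and Lpl, were called higher in CAAM mice and 0 lower, where rank products called 1.65% of all probe sets higher and 1.17% lower. In WAT 0 were called in either direction (0.826% and 1.98% of all probe sets), and in BAT 2, Apoc3 and Apoe, were called higher and 0 lower (1.21% and 2.05%). limma called 0 of the 45037 probe sets in each tissue (3047, 1784 and 2886, or 6.77%, 3.96% and 6.41%, had an unadjusted p under 0.05 in liver, WAT and BAT), and so 0 of the 10 genes, of which 1 in each tissue had an unadjusted limma p under 0.05.

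Rank products works on differences in score units, which are largest for probe sets with a wide spread. Of its calls, 98.6% in liver, 96.6% in WAT and 97.4% in BAT were among the 10% of probe sets with the widest SD. Apoa4 and Lpl were the 2 genes of the set among these in liver, and Apoc3 and Apoe were 2 of the 3 in BAT. When the differences were divided by the SD before ranking, rank products called 0 of the 10 genes in each tissue, where it called 0.631% of all probe sets in liver, 0.28% in WAT and 0.537% in BAT.

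**Figure D2:**
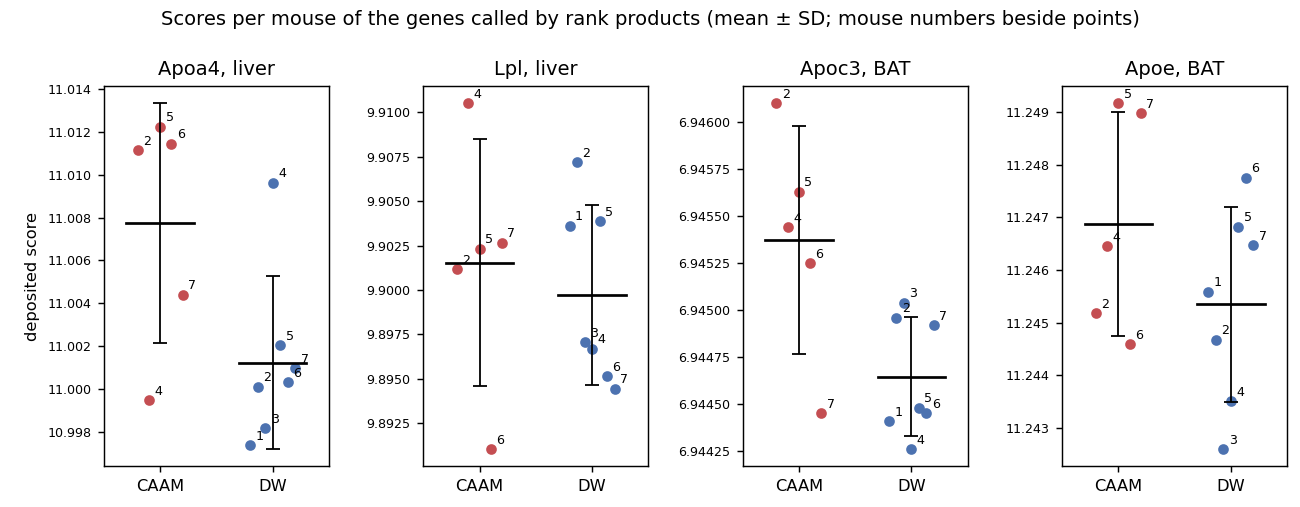
Deposited scores (vertical axes, each with its own range) of Apoa4 and Lpl in liver and of Apoc3 and Apoe in BAT in 5 CAAM and 7 DW mice, with mouse numbers beside the points, the mean as a line and the SD as bars. In every panel the CAAM and DW points overlap, and 4 of 5 CAAM mice lie above all DW mice for Apoc3.

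Apoa4 had the widest shift of the set in liver. Its scores were 11.01113, 10.99948, 11.01223, 11.01144 and 11.00440 in CAAM mice 2, 4, 5, 6 and 7, against 10.99739, 11.00032 and 11.00963 as the lowest, median and highest of the DW mice. CAAM mice 2, 5 and 6 lay above every DW mouse, CAAM mouse 4 lay among the DW mice, and DW mouse 4 lay above the other 2 CAAM mice. The mean was 11.0077 ± 0.00558 in CAAM livers (SD, n = 5) and 11.0012 ± 0.00403 in DW livers (SD, n = 7), a difference of 0.0065 ± 0.00276 (SE) or 1.38 SD. Rank products gave an estimated false share of 0.000211, and limma an adjusted p of 0.726 (unadjusted 0.0338). The other probe set had 1.34 SD and an estimated share of 0.0002, and both moved together over the 12 livers (r = 0.99).

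The Apoa4 call stood in all 12 runs that left out 1 mouse, with standardised differences of 1.15 (without CAAM mouse 5) to 2.2 (without CAAM mouse 4). It was called in 17 of 18 rank product settings, the exception being differences divided by the SD. In 1 limma fit of all 36 arrays its adjusted p was 0.0369, the lowest of a range up to 0.928 over 21 alternatives, in a fit that called 1 of the 10 genes and 0.886% of all probe sets in liver. That fit took 1 SD per probe set over the 3 tissues, without a term for the mouse. The SD of Apoa4 within groups was 0.00471 in liver, 5.22e-06 in WAT and 7.55e-07 in BAT, so this p does not measure the spread of livers alone. In WAT and BAT the Apoa4 scores spanned 1.7e-05 and 2.02e-06 units over the 12 mice, against 0.0148 in liver.

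Lpl in liver was called with a much smaller shift. Its scores were 9.90118, 9.91049, 9.90233, 9.89105 and 9.90266 in CAAM mice 2, 4, 5, 6 and 7, against 9.89444, 9.89706 and 9.90718 as the lowest, median and highest of the DW mice. CAAM mouse 4 was the highest and CAAM mouse 6 the lowest of all 12. The difference was 0.00183 ± 0.00344 (SE), or 0.31 SD, with an estimated false share of 0.0316 for higher, 0.0774 for lower and an adjusted limma p of 0.958. The call was lost without CAAM mouse 2, 5 or 7 (0.31, 0.26 and 0.25 SD) and without DW mouse 3, 4, 6 or 7 (0.23, 0.22, 0.18 and 0.16 SD), and without CAAM mouse 4 Lpl was called lower (-0.08 SD). It was also lost when dim probe sets were left out, and without CAAM mouse 6 the difference was 0.93 SD and called higher. The other probe set had 0.42 SD and an estimated share of 0.0171.

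Markers of non-parenchymal cells moved with the group in liver. All 8 macrophage and Kupffer cell markers had a higher mean in CAAM livers and 7 were called higher by rank products. Their mean in SD units ran between 0.36 and 3.35 in CAAM livers and between -0.83 and 0.94 in DW livers, and their summed level between 67.67 and 67.82 in CAAM livers and between 67.62 and 67.69 in DW livers, with all 8 above the tissue median. Over the 12 livers this mean had r = 0.47 with Apoa4, 0.24 with Lpl and -0.70 with Apoe. The 5 endothelial markers were also higher on average in CAAM livers (0.73 to 1.54, against -0.95 to 1.01 in DW livers), with 0 called and r = 0.60 with Lpl. Of the 4 measured hepatocyte markers 2 had a higher mean in CAAM livers and 1 was called higher, with summed levels of 55.28 to 55.31 in CAAM livers and 55.26 to 55.30 in DW livers. The part of these cells in the values of the apolipoproteins was not tested.

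The other genes of the liver set had 0 calls by their chosen probe set. Apoc1 was 1.37 SD lower in CAAM livers, but over a spread of only 2.7e-07 units among the 12 mice, and its limma p, which shares the spread of all probe sets, was 0.895. Mttp was 1 SD lower by the chosen probe set and 0.1 SD higher by the other one, and these did not move together (r = -0.03). Apoa5 was 0.89 SD higher and Apoe 0.8 SD lower. Apob, the structural protein, was 0.52 SD higher and not called, although it was called higher on the linear scale (0.52 SD) and by the mean of its probe sets (0.91 SD), and its dimmer probe set was called higher at 0.92 SD with an estimated share of 0.011. Apoa1, Apoa2 and Apoc3 lay within 0.21 SD of no difference.

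In WAT the widest shift was that of Mttp. Its scores were 7.54305, 7.54293, 7.54304, 7.54305 and 7.54306 in CAAM mice 2, 4, 5, 6 and 7, against 7.54288, 7.54296 and 7.54299 as the lowest, median and highest of the DW mice. The 4 CAAM mice other than mouse 4 lay above all DW mice. The difference was 7.91e-05 ± 2.6e-05 (SE), or 1.78 SD, with an unadjusted limma p of 0.0104 and an adjusted one above 0.999, and rank products gave an estimated share of 0.518. Without CAAM mouse 4 it was 3.16 SD. Quantile normalization brought it to 0.14 SD and centring each array on its median to 0.2 SD. In 1 limma fit of all 36 arrays its adjusted p was 0.0133, the lowest over 22 alternatives that reached up to 1. That fit called 1 of the 10 genes and 0.762% of all probe sets in WAT, and 0 of the 10 genes and 0.362% in BAT. It took 1 SD per probe set over the 3 tissues, without a term for the mouse. The SD of Mttp within groups was 6.41e-06 in liver, 4.44e-05 in WAT and 1.96e-05 in BAT. The other probe set of Mttp had a standardised difference of 1.06 SD in WAT.

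Markers of other cells moved with the group in WAT. All 3 mesothelial markers were called lower in CAAM WAT, and their mean in SD units ran between -2.58 and -0.89 in CAAM WAT and between -1.21 and 1.35 in DW WAT, with summed levels of 24.62 to 24.66 in CAAM WAT and 24.65 to 24.71 in DW WAT. Of the 5 endothelial markers 0 had a higher mean and 2 were called lower in CAAM WAT, with summed levels of 46.06 to 46.08 in CAAM WAT and 46.07 to 46.08 in DW WAT. All markers of both lists were above the tissue median. Over the 12 mice Mttp had r = -0.63 with the mesothelial and -0.48 with the endothelial markers. The part of these cells in the Mttp values was not tested.

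The order of shifts in WAT changed without the 4 arrays with markers of the male tract, which were chosen by their Adam7 scores alone. Mttp was then at 1.54 SD, below Apoa1 (2.11 SD) and Apob (1.62 SD, against 0.32 SD with all arrays). Apoa1 and Apob were below the tissue median in WAT and spanned 3.16e-05 and 1.04e-05 units over the 12 mice. The other probe set of Apob had -0.08 SD with all arrays. Apoa4, Apoc3 and Lpl were at 1.16, 0.97 and 0.77 SD. Rank products called 0 of the 10 genes in this setting.

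With all arrays, Apoa1 followed Mttp in WAT with 1.09 SD by its chosen probe set, while its other 3 ranged between -0.42 and 0.94. The remaining genes lay between -0.43 SD (Apoe) and 0.65 SD (Apoa5). Lpl was 0.43 SD higher and spanned only 1.4e-06 units over the 12 mice.

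In BAT, Apoc3 was the gene with the widest shift. Its scores were 6.94610, 6.94544, 6.94563, 6.94525 and 6.94445 in CAAM mice 2, 4, 5, 6 and 7, against 6.94426, 6.94448 and 6.94504 as the lowest, median and highest of the DW mice. CAAM mice 2, 4, 5 and 6 lay above every DW mouse, and CAAM mouse 7 lay among them. The mean was 6.94538 ± 0.000607 in CAAM BAT (SD, n = 5) and 6.94465 ± 0.000315 in DW BAT (SD, n = 7). The difference was 0.00073 ± 0.000266 (SE), or 1.6 SD, with an estimated false share of 0.00674 and an adjusted limma p of 0.704 (unadjusted 0.0171).

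The Apoc3 call stood in all 12 runs without 1 mouse (1.38 to 2.89 SD, the highest without CAAM mouse 7). It was lost after quantile normalization, although the difference was then 2.14 SD. Apoc3 scored 6.94 in DW BAT, where the tissue median was 6.78. Of the 4 measured hepatocyte markers, Alb, Ttr and Tat were below that median in BAT (6.54, 6.69 and 6.68), with lower means in CAAM BAT. Cyp2e1 was above the median at 9.58 and was 0.94 SD higher in CAAM BAT, and 1 of the 4 was called higher. The mean of the 4 in SD units had r = -0.39 with Apoc3. The part of hepatocyte RNA in Apoc3 was not tested. CAAM mouse 2, the highest for Apoc3, was among the 4 BAT arrays with muscle markers, and without these 4 arrays Apoc3 (1.55 SD) and Apoe (0.78 SD) were both still called.

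Apoe in BAT had scores of 11.24518, 11.24645, 11.24916, 11.24459 and 11.24898 in CAAM mice 2, 4, 5, 6 and 7, against 11.24260, 11.24559 and 11.24775 as the lowest, median and highest of the DW mice. CAAM mice 5 and 7 lay above every DW mouse and the other 3 lay among them. The difference was 0.00153 ± 0.00115 (SE), or 0.78 SD, with an estimated false share of 0.018 and an adjusted limma p of 0.891. The call was lost without CAAM mouse 5 (0.51 SD), CAAM mouse 7 (0.52 SD) or DW mouse 3 (0.59 SD), and after quantile normalization (0.44 SD). Of the 8 macrophage markers, which mark cells that make Apoe, 1 had a higher mean in CAAM BAT and 5 were called lower. Their summed level was 62.96 to 63.09 in CAAM BAT and 62.93 to 63.27 in DW BAT, with 6 of 8 above the tissue median and Marco (6.6) and Clec4f (6.67) below it. Over the 12 mice Apoe had r = 0.50 with the macrophage markers, 0.58 with the adipocyte markers and 0.07 with the brown adipocyte markers. The part of these cells was not tested.

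Lpl in BAT was 1.01 SD higher by both probe sets and Apoc1 0.97 SD higher, with 0 calls. Both measured general adipocyte markers, Adipoq and Cidec, had a higher mean in CAAM BAT. Their summed levels were 25.3541 to 25.3552 in CAAM BAT and 25.3538 to 25.3546 in DW BAT. They had r = 0.67 with Lpl and 0.67 with Apoc1 over the 12 mice. The brown adipocyte markers Ucp1 and Cidea went the other way, with lower means in CAAM BAT (-0.64 and -0.30 SD). Their r was 0.30 with Lpl and -0.55 with Apoc1. The part of adipocytes in these values was not tested. All 6 skeletal muscle markers were called lower in CAAM BAT and had r = -0.66 with Lpl and -0.42 with Apoc1. Without the 4 arrays with muscle markers Lpl was at 0.84 SD and Apoc1 at 1.35 SD.

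Mttp was 0.73 SD higher in CAAM BAT, and 0.39 SD without these 4 arrays. Apob was 0.82 SD lower, and Apoa2, Apoa4, Apoa5 and Apoa1 lay between -0.12 and 0.26 SD by their chosen probe sets. The other 3 probe sets of Apoa1 had 1.18, 0.58 and 0.08 SD, and for the first and second of these 5 of 5 CAAM mice lay above the DW median.

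**Figure D3:**
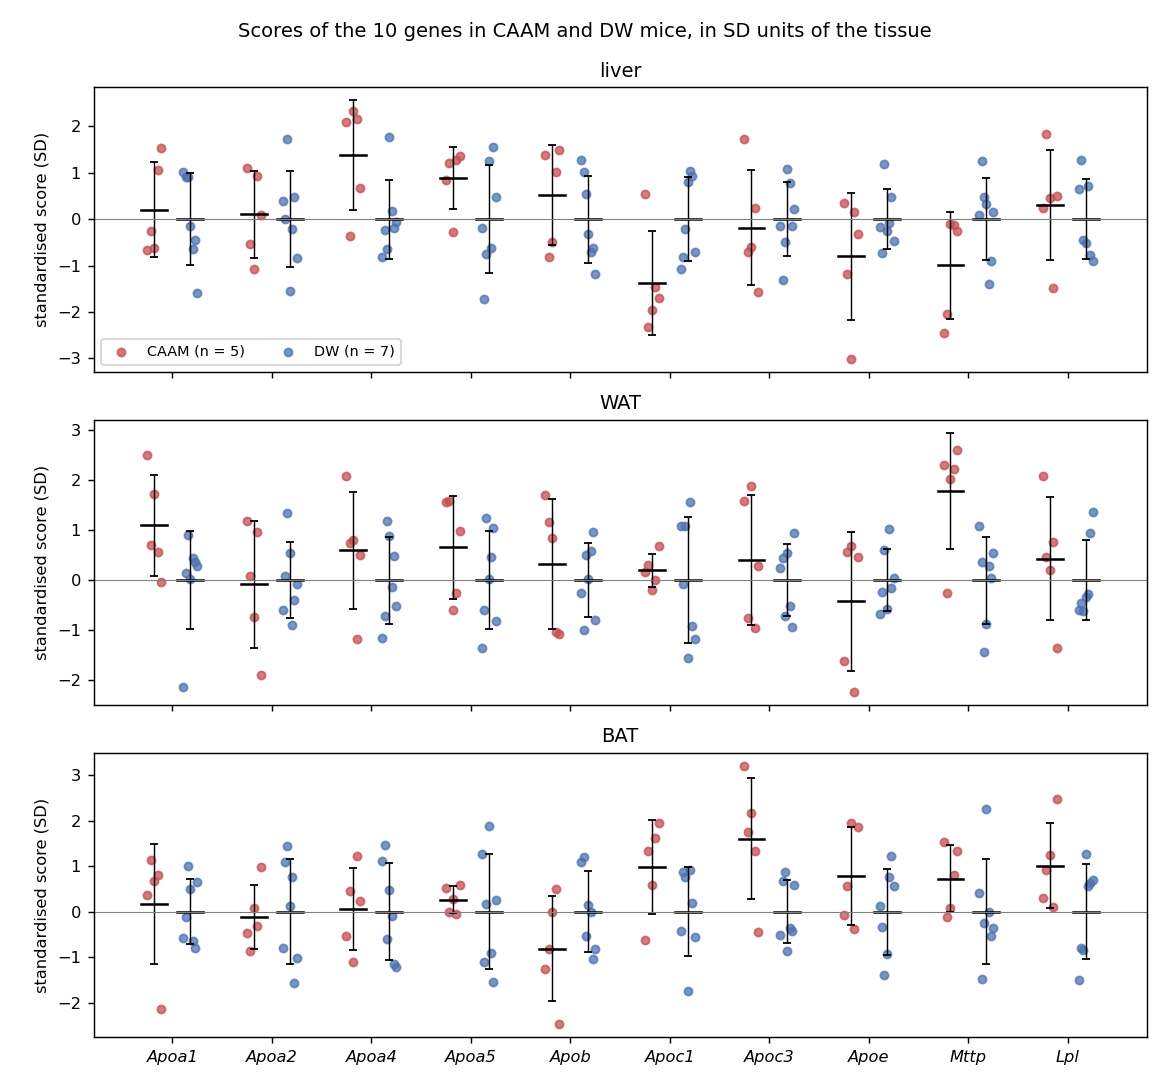
Scores in SD units of the tissue (vertical axis, 0 being the DW mean) of the 10 genes (horizontal axis) in liver, WAT and BAT, with 5 CAAM mice left of 7 DW mice, the mean as a line and the SD as bars. The groups overlap for all genes in all tissues, with the largest shifts for Apoa4 in liver, Mttp in WAT and Apoc3 in BAT.

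Of the 17 probe sets, 0 separated the CAAM from the DW mice without overlap in any tissue, where 0.442% of all probe sets did so in liver, 0.222% in WAT and 0.329% in BAT. The mean was higher in CAAM mice for 6 of the 10 genes in liver, 8 in WAT and 8 in BAT, where 44.5%, 51.1% and 49.2% of all probe sets were higher. These counts turned with the scaling: after centring on array medians they were 2, 10 and 10, where 4.35%, 96.6% and 98.5% of all probe sets were higher, and after quantile normalization 8, 9 and 10, where 22%, 67.6% and 97.2% were. In liver, quantile normalization put Apoa1, Apoa2, Apoa5, Apoc1 and Apoc3 each at 0.707 SD. That value arises when 1 CAAM array differs and all other arrays are equal, so these signs are not those of a group. The median standardised difference of the 10 genes was 0.16 in liver, 0.42 in WAT and 0.49 in BAT, beside -0.09, 0.01 and -0.01 over all probe sets. The directions of Apoa4 and Lpl in liver, Mttp in WAT and Apoc3 and Apoe in BAT did not turn under either scaling. In WAT and BAT both scalings raised the share of probe sets with a higher mean in CAAM mice. The unchanged directions of Mttp, Apoc3 and Apoe, which were already higher, are therefore a weak check.

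Whether the difference between CAAM and DW mice itself differed between tissues was tested within mice by limma, in SD units of each tissue. Of all probe sets 0.329% passed for liver minus WAT, 0.273% for liver minus BAT and 0.0622% for BAT minus WAT, and of the 10 genes 0 passed. The lowest p was that of Mttp, 1 SD lower in CAAM livers and 1.78 SD higher in CAAM WAT (difference -2.78 ± 0.752, SE, with an adjusted limma p of 0.0865 and an unadjusted one of 0.000555). The other probe set of Mttp was 0.1 SD higher in CAAM livers, and the chosen one was at 0.135 SD there after quantile normalization. Apoc1 came next, 1.37 SD lower in CAAM livers and 0.97 SD higher in CAAM BAT (-2.34 ± 0.974, SE, with an adjusted limma p of 0.194 and an unadjusted one of 0.00317). Its liver scores spanned only 2.7e-07 units, with an unadjusted limma p of 0.895 within liver. Dividing by the SD gave this small spread full weight. For Apoc3 the difference liver minus BAT was -1.78 ± 0.686 (SE, adjusted p = 0.402).

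Within a tissue, the 10 genes did not vary over the mice as 1 group. Over the 12 livers the 45 pairwise correlations lay between -0.53 and 0.77 with a median of -0.05, and 5 were over 0.5. The closest pairs were Apoa1 and Apob (r = 0.77), Apoa2 and Apoe (0.69) and Apoc1 and Apoc3 (0.66). Apoa1 and its neighbour Apoc3 had r = -0.53. In WAT the median was 0.18, and Apoa4, Apoa5, Apob and Apoa1 were pairwise at 0.54 to 0.75. Of these, Apoa1, Apoa5 and Apob were below the tissue median in WAT, and the 2 probe sets of Apoa4 had r = -0.12 there. In BAT the median was -0.03, with Apoa5 and Mttp at 0.76 and Apob and Lpl at -0.70, where Apoa5 and Apob were below the tissue median. Points of a tissue share the quantification and the CAAM and DW groups, and these values are descriptions.

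**Figure D4:**
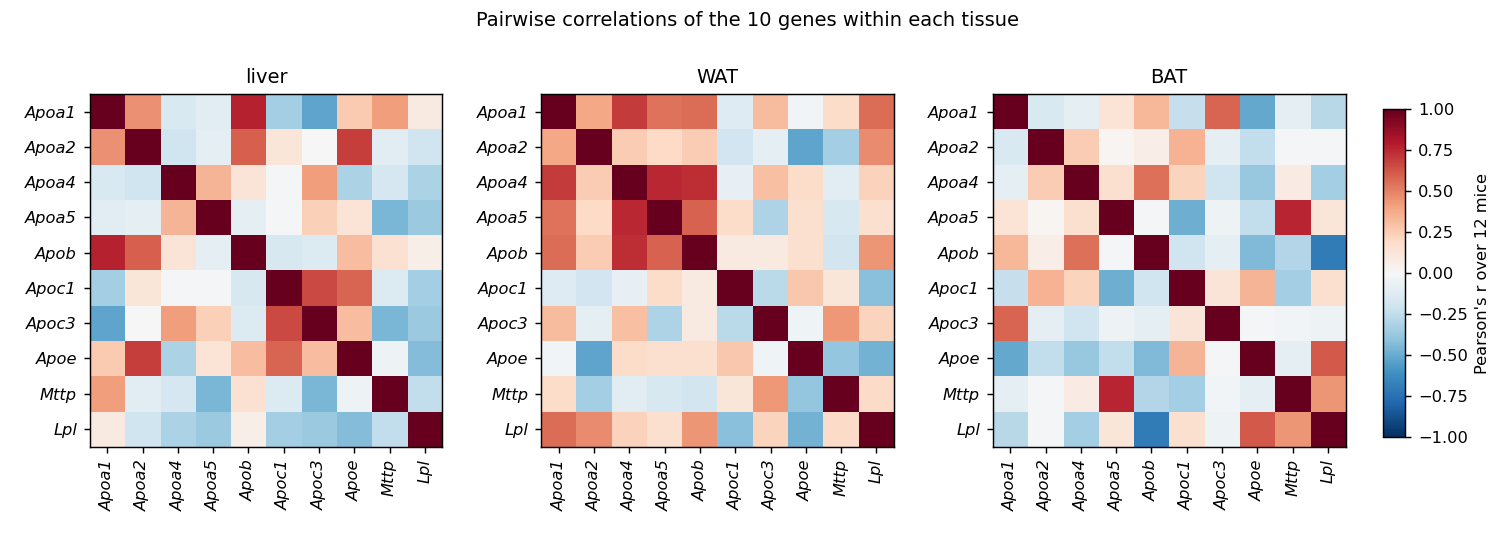
Pearson's r (colour, -1 to 1) between the scores of the 10 genes over the 12 mice within liver, WAT and BAT. In liver Apoa1 and Apob are the closest pair at 0.77, and in WAT a block of Apoa1, Apoa4, Apoa5 and Apob stands out at 0.54 to 0.75. Of this block Apoa1, Apoa5 and Apob are below the tissue median in WAT.

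In liver the 4 probe sets of Apoa1 were pairwise at 0.96 to 0.99, those of Apoa4 at 0.99, Lpl at 0.97 and Apob at 0.90, and in WAT the values were 0.16 to 0.83 for Apoa1 and -0.12 for Apoa4. The same gene in different tissues of a mouse was related loosely, with r over the 12 mice between -0.58 (Apoe, liver and BAT) and 0.54 (Apoc1, BAT and WAT).

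The genes most like each gene were sought over the 12 livers among 11645 genes above the tissue median, by the highest Pearson's r, as a description. Apoa4 was closest to Nnmt (0.93), an enzyme that methylates nicotinamide, Slc10a7 (0.89) and Trim30d (0.88). Apob was closest to Tm9sf4, Prrc2c and Gaa (0.96, 0.96 and 0.95), Apoa1 to Akr1b8, Mr1 and Fbxw5 (0.92, 0.91 and 0.89) and Apoa2 to Aup1, Asgr2 and Pfkl (0.92, 0.92 and 0.91). Nnmt was called higher in CAAM livers by rank products (1.24 SD), as was Trim30d (1.58 SD). Apoa5 was closest to Pim3, Etfbkmt and Tmf1 (0.89, 0.89 and 0.87), of which Pim3 (1.17 SD) and Etfbkmt (0.53 SD) were called higher. These genes were picked over the same CAAM and DW livers, so their calls are not independent of the shifts of Apoa4 and Apoa5.

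For Apoc1 the closest were Dnajc28, Gpt and Hspd1 (0.92, 0.90 and 0.88), for Apoc3 Wdr33, Spout1 and Tcn2 (0.89, 0.87 and 0.84), for Apoe Gpld1, 4930526I15Rik and Ttc36 (0.89, 0.88 and 0.87) and for Mttp Ssc5d, A330009N23Rik and Ppp1r12b (0.88, 0.86 and 0.85). Lpl was closest to Mdfic, Lamb1 and Ptpre in liver (0.93, 0.90 and 0.90), to Chac2, Gtf2h5 and Dlst in WAT (0.93, 0.91 and 0.90) and to Gar1, Ralb and Gtpbp4 in BAT (0.91, 0.90 and 0.89). The 3 genes closest to Lpl differed between the 3 tissues.

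The wider pathway was described by 86 other genes in 6 groups, of which 76 were measured. In liver, rank products called 3 of the 76 higher, 8 lower and Saa1 in both directions, where 1.65% of all probe sets were called higher and 1.17% lower. In WAT it called 2 higher and 2 lower (0.826% and 1.98% of all probe sets), and in BAT 3 higher and 4 lower (1.21% and 2.05%). After quantile normalization it called 1 higher and 5 lower in liver, 1 and 1 in WAT and 2 and 0 in BAT. limma called 0 in each tissue, and 6, 1 and 5 had an unadjusted p under 0.05 in liver, WAT and BAT, beside 6.77%, 3.96% and 6.41% of all probe sets. All genes called with the scores as deposited are named, and those beyond the first 5 of a tissue by limma p were added after their values were seen.

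In liver, Pltp, the phospholipid transfer protein that remodels HDL, was called higher at 1.92 SD (8.53672 in CAAM livers and 8.53419 in DW livers, with an adjusted limma p of 0.674), and it was the 1 gene of the 76 whose groups did not overlap, beside 0.442% of all probe sets. The 8 genes of HDL remodelling and efflux all had a higher mean in CAAM livers (median 0.34 SD), and only 1 of 8 did after centring on array medians. Of the 11 genes of receptors and clearance, Sdc1, a proteoglycan that captures remnants, and Cd36, a fatty acid receptor, were called higher (1.44 and 1.15 SD), but neither was after quantile normalization, when Sdc1 was at -0.26 SD.

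The calls for lower were spread over 4 groups in liver. Foxa2, a hepatic transcription factor, led them at -1.73 SD, and Srebf1, Mlxipl and Ppargc1b, regulators of lipid synthesis and oxidation, followed at -0.11, -0.63 and -0.33 SD, which makes 4 of 18 transcription factors. After quantile normalization Foxa2 was still called lower (-1.56 SD), the other 3 were not called, and Esrra, a nuclear receptor of oxidative metabolism, was called lower. Among the 18 genes of particle assembly and export, the carboxylesterases Ces1d (-0.51 SD) and Ces1g (0.19 SD, with a higher mean) were called lower, and so were Angptl8, an inhibitor of Lpl (-0.45 SD), and Saa4, a serum amyloid protein on HDL (-0.18 SD). Its relative Saa1, an acute phase protein, had a mean 0.72 SD higher and was called in both directions. The calls of Ces1d and Saa4 were lost after quantile normalization, and Pdia3, a protein disulfide isomerase, was called lower then. These are the calls of a test that ranks score units, and 5 of the 12 lay under 0.5 SD in size.

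**Figure D5:**
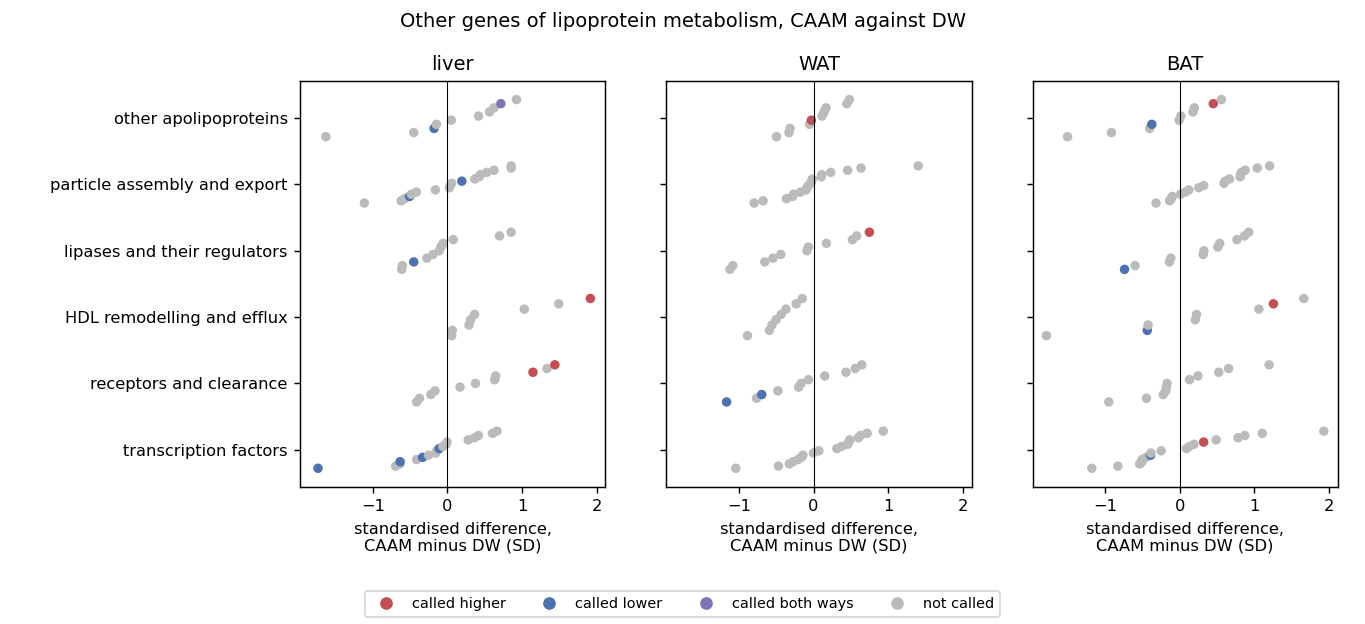
Standardised difference, CAAM minus DW (horizontal axis, SD), of the 76 measured other genes of lipoprotein metabolism by group (vertical axis) in liver, WAT and BAT, coloured by the rank product call. Pltp (1.92) and Foxa2 (-1.73) are the called genes farthest from 0 in liver, Vldlr (-1.17) in WAT and Pon1 (1.26) in BAT.

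In WAT, Lipg, endothelial lipase, was called higher (0.75 SD) and so was Apod, a carrier of small lipids (-0.03 SD, with a slightly lower mean). Vldlr, the receptor that helps deliver triglyceride to fat cells, and Sdc1 were called lower (-1.17 and -0.69 SD), and Vldlr was at 0.1 SD after quantile normalization, when it and Apod were not called. In BAT, Pon1, an esterase carried on HDL, was called higher at 1.26 SD (adjusted limma p of 0.78), as were Apod (0.45 SD) and the coactivator Ppargc1a (0.32 SD). Angptl8, Pltp, Mlxipl and Apobec1, the enzyme that edits Apob mRNA, were called lower (-0.74, -0.43, -0.39 and -0.37 SD). After quantile normalization these 4 and Ppargc1a were not called. Centring on array medians turned the differences of Angptl8, Mlxipl and Pltp in BAT to 0.62, 0.45 and 0.01 SD.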

How the data were processed

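Liver, WAT and BAT RNA of 12 male mice was hybridised to 36 Affymetrix Mouse Genome arrays. Per the methods, the distribution free weighted method in Bioconductor was applied by the authors to the CEL files (R 2.7.2 in the submitters' processing notes), and the deposited value is a score for each probe set on each array. Of 45101 probe sets 64 controls were left out, with no missing values. Gene symbols were those of the platform annotation. CAAM was compared with DW tissue by tissue, without covariates or a block. Rank products used the 35 pairs of a CAAM and a DW array and 100 permutations, or 20 under the alternatives (own code, python 3.11.15 with numpy 2.4.6 and pandas 2.3.3), and limma 3.58.1 in R 4.3.3 (lmFit, eBayes) gave SE and two-sided p-values, adjusted over 45037 probe sets. A limma test of tissue levels had been planned and was not run, because tissues appeared to be quantified apart, and effects were compared between tissues in SD units for the same reason. The number of arrays limits the precision, and p-values measure the spread between mice.

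The 10 genes, the pathway and marker lists and the tests were chosen with earlier results of these data known. Named were the 10 genes with every probe set, pathway genes called by either test (up to 5 per tissue by limma p), the 3 genes most like each gene, and marker genes set beside a result. Alternatives were quantile normalization, centring on array medians, the linear scale, differences divided by the SD, leaving out dim probe sets, the mean of a gene's probe sets, the mouse number as a block, trend and robust priors, 1 fit of all arrays and leaving out each mouse. Leaving out 4 WAT and 4 BAT arrays with markers of other tissue was chosen after seeing the data. Scripts were tested on simulated data. Figures were drawn with matplotlib 3.10.9.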

Additional observations from a re-analysis of the deposited data

Results flagged for a closer look

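Of 60 groups (10 genes, 3 tissues, CAAM and DW), 4 had a mouse far from the others, its gap to the nearest mouse divided by the range of the group being above Dixon's critical value (0.71 for 5 mice, 0.568 for 7). Chance flags about 1 in 20 groups. In liver, DW mouse 4 was the highest of the 7 DW mice for Apoa4 (ratio 0.62, 1.78 SD above the DW mean), and the Apoa4 difference was 2 SD without it. In WAT, CAAM mouse 4 was the lowest of the 5 CAAM mice for Mttp (0.797, -0.27 SD), and DW mouse 1 the lowest of the DW mice for Apoa1 (0.71, -2.15 SD). In BAT, CAAM mouse 7 was the lowest of the CAAM mice for Apoa1 (0.767, -2.14 SD).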

How the results depend on the processing

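Gene counts called by rank products were 2 in liver, 0 in WAT and 2 in BAT. Ranks of differences divided by the SD gave 0 in liver and 0 in BAT, leaving out dim probe sets gave 1 in liver, the linear scale and the mean of all probe sets of a gene gave 3 each in liver (Apob was also called higher, and Lpl in both directions on the linear scale), and quantile normalization gave 2 in WAT (Apoe and Lpl, called lower) and 0 in BAT. The 2 calls in WAT went against the means, which were higher in CAAM WAT for both Apoe and Lpl after quantile normalization. Leaving out each mouse gave 1 to 2 in liver, 0 to 0 in WAT and 1 to 2 in BAT. limma called 0 genes except in 1 fit of all 36 arrays, which called 1 in liver (Apoa4) and 1 in WAT (Mttp), beside 0.886% and 0.762% of all probe sets. That fit took 1 SD per probe set over tissues of unlike spread, without a term for the mouse. The cause was not tested. Over all probe sets, rank products called 1209, 1195 and 1431 in liver, WAT and BAT, against 284, 126 and 242 with differences divided by the SD, 665, 623 and 752 without dim probe sets and 584 and 529 after quantile normalization in WAT and BAT, and 548 in WAT and 806 in BAT without the 4 arrays with markers of other tissue.

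The mouse number as a replicate block left the limma count at 0 in each tissue and moved Apoa4 in liver to 0.794 SD and Mttp in WAT to 3.816 SD. Deviations of CAAM and DW mice with the same number correlated at -0.15 to 0.15 in liver, -0.19 to 0 in WAT and -0.09 to 0.06 in BAT, so the numbers do not pair them. Tissue differences taken unpaired, without the block of the mouse, gave the same 10 genes past 1 unit for liver minus WAT. This count could not change, because the same DW mice gave the means of both tissues.

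Directions of standardised differences turned in 21 of 281 settings other than leaving out a mouse. Quantile normalization turned Apob (-0.707), Apoc1 (0.707), Apoc3 (0.707) and Mttp (0.135) in liver, Apoa1 (-0.077), Apoa2 (0.028) and Apoe (0.154) in WAT and Apoa2 (0.625) and Apob (0.762) in BAT. The liver values of 0.707 in size arise when 1 CAAM array differs and all others are equal, and are not a direction of the group. Centring on array medians turned Apoa1 (-1.361), Apoa2 (-1.359), Apoa5 (-1.241) and Apob (-0.831) in liver, Apoa2 (0.158) and Apoe (0.087) in WAT and Apoa2 (0.898) and Apob (0.883) in BAT. The mean of all probe sets turned Apoa4 in WAT (-0.154), the replicate block turned Apoa2 in WAT (0.065) and BAT (0.005), and leaving out the 4 arrays with markers of the male tract turned Apoa2 in WAT (0.072). Leaving out 1 mouse turned 27 of 360 differences, with ranges of -0.171 to 0.459 (Apoa2), -0.079 to 0.926 (Lpl), -0.128 to 0.429 (Apoa1) and -0.838 to 0.18 (Apoc3) in liver, -0.029 to 0.732 (Apob), -0.43 to 0.459 (Apoa2), -0.731 to 0.028 (Apoe) and -0.073 to 0.514 (Apoc1) in WAT, and -0.072 to 1.219 (Apoa1), -0.428 to 0.131 (Apoa2) and -0.25 to 0.355 (Apoa4) in BAT. Of 360 tissue differences under other settings, 0 turned. In 210 of them 1 mouse was left out, which could not turn a sign that all 7 DW mice shared. Taking the differences unpaired or on the linear scale could not turn such a sign either.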
